A study of Mus musculus with 12 samples.

Results

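The response of sh*Pax6* retinas to NMDA is described here from 4 RNA-seq libraries of mouse retina, 2 that received NMDA and 2 that received PBS. Both groups were retinas of C57BL/6J mice infected with AAV2.7m8 carrying pU6-sh*Pax6*-GFP, a vector in which the U6 promoter, active in most cell types, drives a short hairpin RNA against *Pax6* and GFP marks infected cells. The study describes the mice as 2 months old at delivery of the vector, and gives the route as intravitreal in its account of these retinas and as subretinal in its methods. An intravitreal injection of 1 µL of PBS, or of 40 mM NMDA in the same volume (40 nmol), followed. The labels and the methods do not state the time from that injection to collection of the retinas. Each library was made from poly(A) RNA pooled from more than 3 retinas, and the labels do not say whether the 2 libraries of a group came from separate animals, so p-values measure the spread between libraries. None of the 12 libraries analysed here came from retinas given the shScramble vector, so effects of infection and of the hairpin cannot be told apart, and both are shared by the PBS and NMDA groups. The other 8 libraries of the series, from WT (C57BL/6J) and JNK3 KO (*Jnk3*-/-) retinas given PBS or NMDA without the vector, entered the estimate of the spread and are compared at the end. Genes were taken where 1 of the 6 groups averaged over 1 FPKM (a read level scaled for transcript length and for library size), which left 16471 genes. Of these, 15888 lay on the autosomes and are described, while 564 on chromosomes X and Y and the mitochondrial genome and 19 without a position in the annotation were left out of all counts.

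NMDA is an agonist of one class of ionotropic glutamate receptors, and an excess of it lets calcium into neurons that carry these receptors, of which retinal ganglion cells (RGCs) and amacrine cells are the best known in the retina. Excitotoxic injury is followed by the death of part of these neurons, by reactive changes of Müller glia (gliosis), by activation of resident microglia and by entry of leukocytes from the blood. *Pax6*, a paired-box transcription factor of eye development, remains expressed in adult RGCs, amacrine cells and horizontal cells.

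*Pax6* stood at 94.6 and 92.8 FPKM after PBS and 67.5 and 58.7 FPKM after NMDA in the sh*Pax6* retinas, against 173 and 177 FPKM in the WT PBS libraries. The NMDA libraries lay below both PBS libraries, by a log2 fold change of -0.57 (SE 0.07, adjusted p = 0.000316). All fold changes were taken on the scale log2(FPKM + 0.1), which understates the change of genes with low values, and adjusted p-values came from limma's moderated test with Benjamini-Hochberg adjustment over all genes tested. A gene was called up (rose) or down (fell) at an adjusted p under 0.05 and an absolute log2 fold change above 1. The files hold FPKM and no counts, so the depth behind a value is unknown, and precision was judged from the replicates. The 2 libraries of a group differed by a median of 0.215 log2 units after PBS and 0.251 after NMDA in the sh*Pax6* retinas, and by 0.112 to 0.183 in the other 4 groups. Values of a gene are given as the 2 PBS libraries and then the 2 NMDA libraries, replicate 1 before replicate 2. FPKM summed to between 553263 and 576696 in the 4 sh*Pax6* libraries, and to 805627 and 820180 in the WT NMDA libraries, which stood apart from the other 10.

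After NMDA, 1380 autosomal genes rose (8.69% of those tested) and 769 fell (4.84%), while 13739 passed neither call. Without the limit on fold, 3063 genes had an adjusted p under 0.05 with higher and 1721 with lower values. The rises were larger than the falls: 654 genes rose by more than 2 log2 units and 329 by more than 3, while 259 and 89 fell by as much. Many called genes were near the floor in 1 group. Of those that rose, 587 had a PBS mean under 1 FPKM and 264 had a library at 0. Of those that fell, 327 had an NMDA mean under 1 FPKM and 129 had a library at 0. The genes that rose include 85 immunoglobulin genes. Both NMDA libraries lay beyond both PBS libraries in every called gene, which was also so for 35.2% of all tested genes in the upward and 21.7% in the downward direction. Over all tested genes the median change was 0.10 log2 units, with 5th and 95th percentiles of -1.48 and 2.16. The share that rose was highest among genes with a mean of 1 to 10 FPKM over the 4 libraries (13.3%) and stood at 4.82% above 100 FPKM, where 6 of 747 genes fell. By spliced length, 12.4% of genes of 1 to 2 kb rose, against 6.44% of those over 4 kb. With only the 4 sh*Pax6* libraries behind the spread, 630 genes were called, 465 up and 165 down. Under quantile normalization the split was 1022 up and 1065 down (49.0% up, against 64.2%), and the median of all genes shifted from 0.10 to -0.04.

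**Figure D1:**
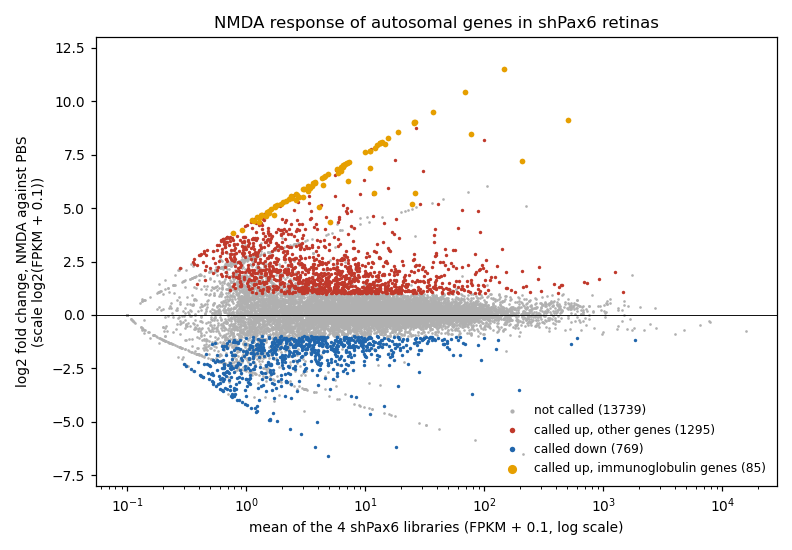
Each point is 1 of the 15888 autosomal genes, with the mean of the 4 sh*Pax6* libraries (FPKM + 0.1, log scale) on the horizontal axis and the log2 fold change after NMDA on the vertical axis. Red points are genes called up, blue points genes called down, and the 85 immunoglobulin genes called up (orange) lie along the upper edge, where PBS values are at or near 0.

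The 12 largest rises among called protein-coding genes that averaged over 1 FPKM in each group, no library being listed at 0, included 3 chemokine genes and several genes of phagocytes. The rule also required both NMDA libraries to lie beyond both PBS libraries, as they did in every called gene. *Ccl8*, a chemokine that draws monocytes, rose from 2.35 and 0.79 to 44.9 and 66.4 FPKM (log2 fold change 5.21, SE 0.76, adjusted p = 0.000944). *Ccl6*, a chemokine of macrophages, rose from 2.19 and 1.98 to 79.5 and 78.5 FPKM (log2 fold change 5.18, SE 0.23, adjusted p = 9.55e-07). *Ccl2*, the main attractant of blood monocytes, rose from 0.91 and 2.20 to 31.4 and 37.6 FPKM (log2 fold change 4.50). *Gpx3*, a secreted glutathione peroxidase, was at 4.91 and 3.43 FPKM after PBS and 115 and 134.7 FPKM after NMDA (log2 fold change 4.89, SE 0.21, adjusted p = 9.55e-07). All PBS libraries of these 4 genes were below 5 FPKM, and all NMDA libraries above 30 FPKM. *Lgals3*, which encodes the galactoside-binding lectin galectin-3 of phagocytes and reactive glia, rose from 6.12 and 5.67 to 159.7 and 185 FPKM (log2 fold change 4.84, SE 0.12, adjusted p = 3.87e-08). *Hmox1*, the haem-degrading enzyme haem oxygenase, rose from 5.84 and 7.74 to 115 and 114 FPKM (log2 fold change 4.07, SE 0.12, adjusted p = 1.98e-07). *Spp1*, the secreted phosphoprotein osteopontin, rose from 10.9 and 12.4 to 168 and 178 FPKM (log2 fold change 3.89). *Cd68*, a lysosomal glycoprotein of phagocytes, rose from 4.44 and 5.99 to 68.9 and 73.2 FPKM (log2 fold change 3.76). *Srgn*, the granule proteoglycan serglycin of blood-derived cells, rose from 3.37 and 5.45 to 66.1 and 78.5 FPKM (log2 fold change 4.04). *Lst1*, a leukocyte transcript of the MHC region, rose from 0.3 and 1.82 to 10.8 and 19.1 FPKM (log2 fold change 4.05). The paired neutrophil and monocyte genes *S100a8* and *S100a9*, whose products form calprotectin, reached 22.9 and 31.6 FPKM and 31.3 and 32.0 FPKM after NMDA, from 1.44 and 1.14 and from 2.23 and 1.84 FPKM.

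The 12 largest falls by the same rule included genes known from RGCs, amacrine cells, cones and the pigment epithelium. *Rims1*, a scaffold of the presynaptic active zone, fell from 26.0 and 28.1 to 0.70 and 2.47 FPKM (log2 fold change -4.24, SE 0.45, adjusted p = 0.000158). *Nrn1*, the neurite-growth protein neuritin of RGCs, fell from 16.5 and 14.8 to 0.75 and 1.33 FPKM (log2 fold change -3.84, SE 0.21, adjusted p = 3.19e-06). *Calb2*, the calcium-binding protein calretinin of amacrine cells and RGCs, fell from 145 and 148 to 12.1 and 10.5 FPKM (log2 fold change -3.69, SE 0.07, adjusted p = 2.38e-08), and neither NMDA library reached 13 FPKM. *Opn1sw*, the short-wavelength cone opsin, fell from 383 and 334 to 35.2 and 28.0 FPKM (log2 fold change -3.51, SE 0.12, adjusted p = 2.43e-07). *Ttr*, the thyroxine and retinol carrier transthyretin of the pigment epithelium, fell from 35.8 and 32.3 to 2.46 and 4.37 FPKM (log2 fold change -3.33, SE 0.22, adjusted p = 9.17e-06). Among synaptic and neuropeptide genes, *Cacnb4*, a calcium channel subunit, fell from 11.5 and 7.50 to 1.03 and 1.09 FPKM (log2 fold change -3.02). *Syt5*, a vesicle calcium sensor, fell from 9.36 and 10.7 to 1.10 and 1.49 FPKM (log2 fold change -2.87), and *Tac2*, a tachykinin precursor, from 9.46 and 14.8 to 1.26 and 2.37 FPKM (-2.7). *Clec2l*, a C-type lectin of neurons, was at 11.6 and 7.74 FPKM after PBS and 0.62 and 2.86 FPKM after NMDA (log2 fold change -2.71). *Sncg*, the RGC-enriched γ-synuclein, fell from 48.3 and 49.8 to 7.78 and 7.64 FPKM (log2 fold change -2.65). *Nefm*, the medium neurofilament chain, fell from 11.8 and 15.2 to 2.30 and 1.97 FPKM (log2 fold change -2.60). *Slc17a6*, the vesicular glutamate transporter of RGCs, was at 4.20 and 5.42 FPKM after PBS and 2.13 and 0.18 FPKM after NMDA (log2 fold change -2.62). Its NMDA libraries were far apart, and the adjusted p was 0.0795 without PBS replicate 1 and 0.108 without PBS replicate 2.

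**Figure D2:**
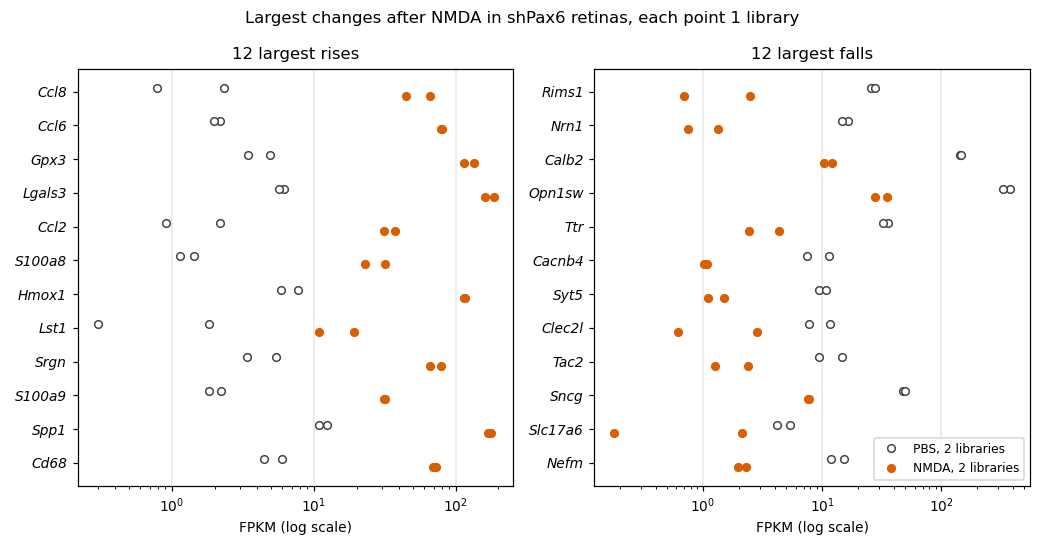
FPKM (log scale) of the 12 genes with the largest rises (left) and the 12 with the largest falls (right) among called protein-coding genes that averaged over 1 FPKM in each group, each open point 1 PBS library and each filled point 1 NMDA library of the sh*Pax6* retinas. In all 24 genes the NMDA points lie beyond the PBS points, as the rule for choosing them required, and the widest gap between the 2 NMDA libraries is that of *Slc17a6*.

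Beside single genes, 39 lists of genes by cell type and function were described by how many of their tested autosomal members rose or fell and by the median log2 fold change, to be read against 8.69% up, 4.84% down and a median of 0.10 for all genes. Of 832 different genes on the lists, 194 rose and 94 fell. The medians ranged from -2.26 (retinal pigment epithelium, RPE) to 3.04 (chemokines). With only the 4 sh*Pax6* libraries behind the spread, 146 list genes were called in place of 288. In this bulk tissue, fewer cells of a type and less RNA per cell cannot be told apart.

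**Figure D3:**
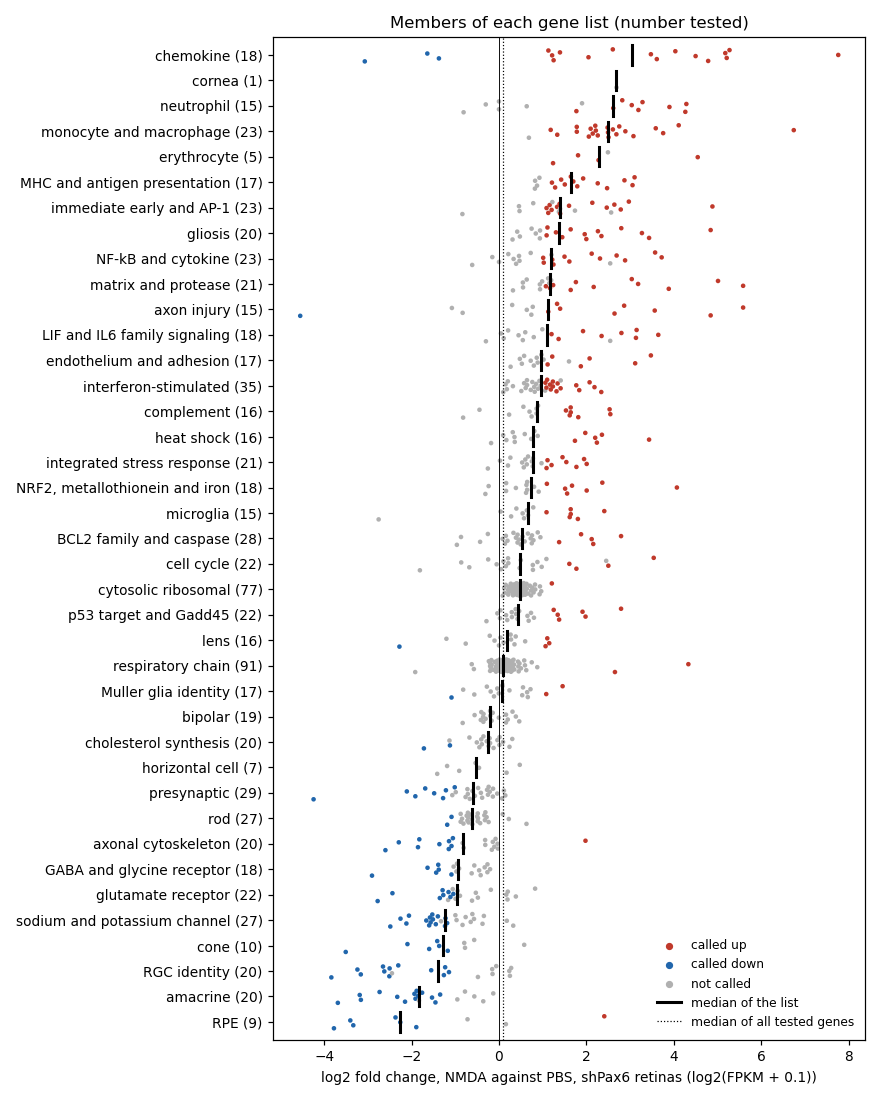
Each point is 1 tested gene of a list, placed by its log2 fold change after NMDA in sh*Pax6* retinas and coloured by its call, and each black bar is the median of the list. Lists are ordered by that median, and the dotted line is the median of all tested genes, 0.10. Chemokine, monocyte and macrophage, neutrophil and erythrocyte genes lie at the top, and cone, RGC, amacrine and RPE genes at the bottom.

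Immediate early genes, transcription factors induced within minutes of a stimulus, were higher after NMDA: 14 of 23 rose, 0 fell, and the list median was 1.39. *Fos*, a subunit of the AP-1 factor, rose from 19.4 and 17.4 to 75.8 and 87.2 FPKM (log2 fold change 2.14, SE 0.13, adjusted p = 5.83e-06). *Egr1*, a zinc-finger factor, rose from 12.5 and 11.7 to 82.0 and 86.3 FPKM (log2 fold change 2.79, SE 0.10, adjusted p = 3.96e-07), and *Junb* from 31.6 and 29.0 to 89.7 and 94.5 FPKM (1.6). *Jun*, the AP-1 subunit activated by JNK kinases, rose from 22.5 and 19.99 to 56.2 and 50.8 FPKM (log2 fold change 1.33, SE 0.09, adjusted p = 8.23e-06). *Atf3*, a stress-induced partner of JUN, rose from 20.6 and 16.9 to 48.4 and 50.2 FPKM (log2 fold change 1.40, SE 0.11, adjusted p = 2.86e-05). *Fosl1*, a late-acting FOS relative, rose from 0.14 and 0.74 to 12.2 and 14.2 FPKM (log2 fold change 4.88). *Mapk10*, which encodes JNK3 itself, was at 20.9 and 21.3 FPKM after PBS and 16.2 and 8.85 FPKM after NMDA and was not called (log2 fold change -0.81, SE 0.36, adjusted p = 0.124), its NMDA libraries being far apart. In the integrated stress response, in which translation is lowered and ATF4 targets are made, 8 of 21 rose and the median was 0.77. *Nupr1*, a stress-induced chromatin protein, rose from 52.8 and 50.4 to 176 and 177 FPKM (log2 fold change 1.77). *Ppp1r15a*, which ends the response by dephosphorylating its translation factor, rose from 12.8 and 11.4 to 30.5 and 36.4 FPKM (log2 fold change 1.45). *Asns*, asparagine synthetase, rose from 16.9 and 20.2 to 42.9 and 36.3 FPKM (log2 fold change 1.09, and 0.96 without PBS replicate 1 and 0.97 without NMDA replicate 1, below the limit on fold).

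Of 23 NF-κB and cytokine genes, 12 rose and 0 fell, with a median of 1.20. *Bcl3*, a nuclear cofactor of NF-κB, rose from 15.0 and 21.9 to 83.9 and 97.3 FPKM (log2 fold change 2.31, SE 0.17, adjusted p = 1.44e-05). *Traf1*, an adaptor of TNF receptors, rose from 0.08 and 0.16 to 2.45 and 3.10 FPKM (log2 fold change 3.72). *Birc3*, an inhibitor of apoptosis on the same receptors, rose from 0.94 and 0.38 to 3.03 and 2.92 FPKM (log2 fold change 2.12). *Tnf* was listed at 0 in both PBS libraries and at 1.09 and 1.09 FPKM after NMDA. *Icam1*, an adhesion molecule for leukocytes, rose from 2.38 and 1.94 to 4.71 and 5.60 FPKM (log2 fold change 1.22). In the signalling of LIF and the IL6 family, which drives the STAT3 response of Müller glia, 8 of 18 rose and the median was 1.10. The ligands *Lif* (0.32 and 1.39 FPKM after PBS and 9.30 and 10.3 FPKM after NMDA) and *Clcf1* (1.47 and 1.66 FPKM after PBS and 14.5 and 14.5 FPKM after NMDA) rose by log2 fold changes of 3.65 and 3.13. The feedback inhibitor *Socs3* rose from 15.9 and 14.4 to 69.6 and 86.0 FPKM (log2 fold change 2.35, SE 0.11, adjusted p = 1.8e-06). The kinase *Pim1*, a STAT3 target, rose from 5.33 and 3.44 to 17.6 and 15.5 FPKM (log2 fold change 1.92). Without NMDA replicate 2, 5 members of that list were called.

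Chemokines, which recruit leukocytes, moved in both directions: 15 of 18 rose, 3 fell and 0 passed neither call, with a median of 3.04. Beside *Ccl8*, *Ccl6* and *Ccl2*, *Ccl3*, an attractant of monocytes and macrophages, rose from 0.65 and 0.54 to 7.28 and 7.96 FPKM (log2 fold change 3.48). The neutrophil attractants *Cxcl1* and *Cxcl2* were listed at 0 in both PBS libraries and at 2.83 and 5.02 FPKM and 26.9 and 17.4 FPKM after NMDA. *Cxcl10*, an interferon-induced attractant of T cells, rose from 7.68 and 6.66 to 40.6 and 47.7 FPKM (log2 fold change 2.60, SE 0.40, adjusted p = 0.00126). *Cx3cl1*, the neuronal fractalkine whose receptor sits on microglia, fell from 18.9 and 23.9 to 7.07 and 9.36 FPKM (log2 fold change -1.37, SE 0.15, adjusted p = 0.000179). *Cxcl14* fell from 18.5 and 18.3 to 5.57 and 6.09 FPKM (log2 fold change -1.64), and *Cxcl13* was at 1.13 and 1.22 FPKM after PBS and 0 and 0.13 FPKM after NMDA (log2 fold change -3.07).

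The bases before the start of 5 called genes are shown as examples, chosen because they hold binding motifs of factors whose pathways the lists follow. The letters searched were GGG, any 2 bases and TTTCC for NF-κB (κB), TTTC, any 2 bases and TTTC for interferon-regulated factors (ISRE), and TGACTCA or TGAGTCA for AP-1. Both strands of the 250 bases before each gene's start were searched, as RefSeq gives them for GRCm38.p6. κB and ISRE matches overlapped in 2 windows and AP-1 matches overlapped with neither. Each sequence here is one such window, 5′ to 3′ on the strand of the gene, with the matching letters in capitals. It was taken from chr5:90890995-90891244 (+ strand) for *Cxcl1*, chr5:90903649-90903898 (+ strand) for *Cxcl2*, chr12:55492648-55492897 (- strand) for *Nfkbia*, chr5:92348890-92349139 (- strand) for *Cxcl10* and chr12:26456453-26456702 (- strand) for *Rsad2*. The capitals mark κB in the first 3 sequences and ISRE in the last 2.
Cxcl1: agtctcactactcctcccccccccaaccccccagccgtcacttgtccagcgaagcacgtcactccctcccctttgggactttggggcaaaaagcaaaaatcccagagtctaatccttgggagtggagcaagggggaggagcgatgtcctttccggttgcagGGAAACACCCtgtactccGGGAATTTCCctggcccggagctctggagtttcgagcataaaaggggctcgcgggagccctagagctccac
Cxcl2: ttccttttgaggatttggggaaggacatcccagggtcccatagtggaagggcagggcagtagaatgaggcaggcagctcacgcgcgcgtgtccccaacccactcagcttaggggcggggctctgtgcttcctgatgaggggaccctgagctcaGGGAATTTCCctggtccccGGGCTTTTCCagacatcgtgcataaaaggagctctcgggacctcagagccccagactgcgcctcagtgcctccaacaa
Nfkbia: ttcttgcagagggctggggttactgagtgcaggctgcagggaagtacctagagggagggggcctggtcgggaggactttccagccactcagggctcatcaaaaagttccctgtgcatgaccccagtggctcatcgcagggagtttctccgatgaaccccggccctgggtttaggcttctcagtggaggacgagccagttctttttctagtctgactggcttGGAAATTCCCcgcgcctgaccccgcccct
Cxcl10: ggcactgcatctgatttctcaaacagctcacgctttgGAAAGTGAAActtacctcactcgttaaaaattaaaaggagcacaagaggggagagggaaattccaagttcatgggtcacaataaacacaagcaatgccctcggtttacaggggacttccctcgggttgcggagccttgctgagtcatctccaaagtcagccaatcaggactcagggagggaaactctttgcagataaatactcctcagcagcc
Rsad2: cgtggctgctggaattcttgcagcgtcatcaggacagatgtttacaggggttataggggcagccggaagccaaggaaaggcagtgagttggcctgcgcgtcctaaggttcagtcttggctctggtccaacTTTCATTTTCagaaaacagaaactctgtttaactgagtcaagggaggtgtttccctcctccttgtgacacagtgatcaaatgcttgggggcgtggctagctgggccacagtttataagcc
*Cxcl1* and *Cxcl2* hold 2 κB matches each and *Nfkbia* 1. *Cxcl10* and *Rsad2* hold 1 ISRE match each, and their windows also hold AP-1, which is left in lower case. *Nfkbia*, the inhibitor IκBα that NF-κB itself induces, rose from 18.1 and 20.6 to 35.8 and 42.6 FPKM (log2 fold change 1.01, and 0.92 and 0.89 without PBS replicate 1 and NMDA replicate 2, below the limit on fold). *Rsad2*, the antiviral enzyme viperin, rose from 2.88 and 3.13 to 15.2 and 16.1 FPKM (log2 fold change 2.34). Over genes with a window, κB was present in 3.94% of 939 called up, 2.33% of 514 called down and 1.63% of 9700 not called. Among all 11153 tested genes with a window the share was 1.86%. In the same order the shares were 6.60%, 2.92%, 2.99% and 3.29% for ISRE, and 7.88%, 3.11%, 3.59% and 3.93% for AP-1. A gene counted where any of its windows held the letters. Among list members called up that had a window, κB was present in 3 of 10 chemokine and 2 of 10 NF-κB and cytokine genes. ISRE was present in 4 of 11 interferon-stimulated genes and AP-1 in 0 of 10 immediate early genes. Of all 32851 single windows, 1.41% held κB, 2.98% ISRE and 4.46% AP-1. All 3 motifs were most frequent among the genes called up, as a description without a test. A match of letters is a description and does not show that a factor binds.

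Genes of monocytes and macrophages rose: 22 of 23 were called up, 0 were called down, and the median was 2.49. Whether blood-derived cells or resident microglia carried these transcripts was not tested. Their summed level was 129 and 127 FPKM after PBS and 788 and 815 FPKM after NMDA. *Lyz2*, lysozyme of phagocytes, rose from 29.0 and 30.3 to 252 and 250.4 FPKM (log2 fold change 3.08, SE 0.06, adjusted p = 2.38e-08). *Arg1*, the arginase of macrophages in wounds, rose from 0.61 and 0.35 to 62.0 and 59.2 FPKM (log2 fold change 6.75, SE 0.21, adjusted p = 1.98e-07). Only *Chil3*, at 2.47 and 1.31 FPKM after PBS and 1.44 and 5.98 FPKM after NMDA, was not called. Of 15 neutrophil genes 9 rose (median 2.61), with summed levels of 12.8 and 8.86 FPKM after PBS and 78.7 and 90.8 FPKM after NMDA, but the defining markers *Ly6g* and *Ngp* were listed at 0 in all 4 libraries. *Cxcr2*, the receptor for CXCL1 and CXCL2, rose from 0.22 and 0.27 to 2.73 and 1.99 FPKM (log2 fold change 2.82). Of 15 microglia genes 6 rose (median 0.67), 3 of them the chains of complement C1q, which macrophages make too. The 3 chains of complement C1q rose together, *C1qa* from 57.1 and 50.8 to 172 and 165 FPKM, *C1qb* from 51.7 and 47.2 to 163 and 146 FPKM and *C1qc* from 40.1 and 36.4 to 127 and 109 FPKM (log2 fold changes 1.64, 1.64 and 1.62). *Tmem119*, which marks resident microglia, was at 3.48 and 3.30 FPKM after PBS and 4.56 and 3.74 FPKM after NMDA (log2 fold change 0.28, SE 0.32, adjusted p = 0.557) and was not called. Of 16 complement genes, which include C1q, 7 rose (median 0.88), *Cfb*, the protease of the alternative pathway, from 3.80 and 3.15 to 12.1 and 12.8 FPKM (log2 fold change 1.81). Haemoglobin genes moved as well, and their part in the leukocyte results was not tested. In the erythrocyte list 4 of 5 rose, with summed levels of 50.3 and 28.6 FPKM after PBS and 129 and 119.7 FPKM after NMDA. *Hbb-bs*, a β-globin gene, rose from 29.9 and 18.2 to 55.1 and 55.2 FPKM (log2 fold change 1.24, and 0.88 without PBS replicate 2, below the limit on fold), and the near-identical *Hba-a1* and *Hba-a2*, between which reads may be split, by log2 fold changes of 1.81 and 2.28.

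Antigen presentation rose with the leukocyte genes: 13 of 17 were called up, 0 down, with a median of 1.64 and a summed level of 742 and 719 FPKM after PBS and 2271 and 2187 FPKM after NMDA. The largest rises of the list were in class II genes, which present peptides to CD4+ T cells. *H2-Aa* rose from 11.9 and 11.5 to 96.0 and 100.6 FPKM (log2 fold change 3.06, SE 0.09, adjusted p = 1.63e-07), *H2-Ab1* from 10.2 and 9.12 to 78.9 and 88.3 FPKM (log2 fold change 3.10). *Cd74*, the invariant chain that loads them, rose from 20.5 and 19.7 to 136 and 160.5 FPKM (log2 fold change 2.87). Of 35 interferon-stimulated genes all had a log2 fold change above 0 on the deposited scale, 15 rose and the median was 0.95. *Bst2*, the membrane protein tetherin, rose from 54.7 and 51.4 to 128 and 155 FPKM (log2 fold change 1.41, SE 0.10, adjusted p = 1.24e-05). *Irf8*, a factor of myeloid cells, rose from 2.46 and 2.45 to 12.1 and 11.0 FPKM (log2 fold change 2.19, SE 0.13, adjusted p = 5.77e-06). *Psmb8*, an immunoproteasome subunit, rose from 16.6 and 17.9 to 44.7 and 37.0 FPKM (log2 fold change 1.23).

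Immunoglobulin genes, which B cells and plasma cells assemble and express, were among the genes with the largest rises. The table holds 268 of them, 218 being V genes, and 102 V and C genes passed the filter at 1 FPKM. In the sh*Pax6* NMDA libraries 90 and 104 lay above 1 FPKM, and in each other library at most 6, so most passed only through the group where they are high and the counts that follow are a description only. Of these 102, 85 rose and 0 fell, 76 of 92 V genes and 9 of 10 C genes. The FPKM of all immunoglobulin genes summed to 9.41 and 11.4 after PBS and to 3178 and 3119 after NMDA, that is 0.552% and 0.541% of all FPKM. The other 8 libraries of the series lay between 0.71 and 7.66, the 2 WT NMDA libraries at 3.34 and 3.77, so both sh*Pax6* NMDA libraries stood far above all others. *Igkc*, the constant part of the κ light chain, rose from 2.11 and 1.37 to 1026 and 991 FPKM (log2 fold change 9.13, SE 0.87, adjusted p = 7.87e-05). *Igha*, the constant part of IgA, rose from 3.31 and 2.12 to 399 and 425 FPKM (log2 fold change 7.23, SE 0.38, adjusted p = 2.9e-06), *Ighg2b*, of an IgG class, from 0.46 and 0.24 to 153 and 157 FPKM (log2 fold change 8.47). *Ighm*, of IgM, rose from 1.14 and 1.29 to 46.9 and 49.2 FPKM (log2 fold change 5.20). *Ighg2c* was listed at 0 in both PBS libraries and at 54.0 and 48.6 FPKM after NMDA. Per length, in FPKM, the levels of *Igha* and *Ighg2b* after NMDA were above that of *Ighm* in both libraries.

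The V genes, of which each B cell clone uses 1 for each of its chains, were many and largely shared by the NMDA libraries. Above 10 FPKM stood 34 V genes in replicate 1 and 30 in replicate 2, of which 27 were in both. Among the highest, *Igkv1-135* was at 309 and 281 FPKM and *Ighv14-2* at 149.7 and 125 FPKM after NMDA, and both were listed at 0 after PBS. V genes are close relatives of each other, so the assignment of reads between them is uncertain. Other genes of these cells rose at lower levels: in a list of B and plasma cell genes 7 of 9 rose (median 2.35). *Jchain*, which joins IgA and IgM into polymers, rose from 9.75 and 8.90 to 73.6 and 66.4 FPKM (log2 fold change 2.89, SE 0.12, adjusted p = 7.52e-07). *Mzb1*, a chaperone of plasma cells, was at 0.41 and 0 FPKM after PBS and 8.13 and 5.18 FPKM after NMDA (log2 fold change 4.87), with an adjusted p of 0.0614 without PBS replicate 2 and 0.0641 without NMDA replicate 1. *Cd79a*, a part of the B cell receptor, was at 0 and 0.04 FPKM after PBS and 2.95 and 1.76 FPKM after NMDA (log2 fold change 4.33, SE 0.81, adjusted p = 0.00379). In a list of T and NK cell genes 6 of 12 rose (median 2.65), *Trbc2*, a constant part of the T cell receptor, from 0 and 0.17 to 8.53 and 4.39 FPKM (log2 fold change 5.24).

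In a list of fibroblast and collagen genes 8 of 11 rose (median 3.32), with summed levels of 26.8 and 28.2 FPKM after PBS and 153 and 176 FPKM after NMDA. *Col1a1*, a chain of type I collagen, rose from 0.64 and 0.27 to 5.26 and 5.32 FPKM (log2 fold change 3.36), *Col1a2* from 0.67 and 0.95 to 7.53 and 10.4 FPKM (log2 fold change 3.32). *Col3a1*, of type III collagen, rose from 0.59 and 0.09 to 5.81 and 5.70 FPKM (log2 fold change 4.02). In a list of smooth muscle and pericyte genes 5 of 7 rose. *Acta2*, smooth muscle actin, was at 3.33 and 0.69 FPKM after PBS and 12 and 10.5 FPKM after NMDA (log2 fold change 2.78), with an adjusted p of 0.0574 without NMDA replicate 1. These 4 lists and their genes were chosen after the immunoglobulin values were seen, and their part in the other results was not tested. Members below 1 FPKM after PBS, such as *Trbc2*, *Cd79a*, *Col1a1* and *Col3a1*, may have passed the filter only through the group where they are high. Counts, medians and p-values of these 4 lists are therefore a description only. Without immunoglobulin genes, 1295 genes were called up (8.20%). The share called up on chromosome 6, which carries the κ light chain genes, was 14.7% with them, the highest of the 19 autosomes, and 10.9% without them, and on chromosome 12, which carries the heavy chain genes, 11.9% and 5.97%.

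**Figure D4:**
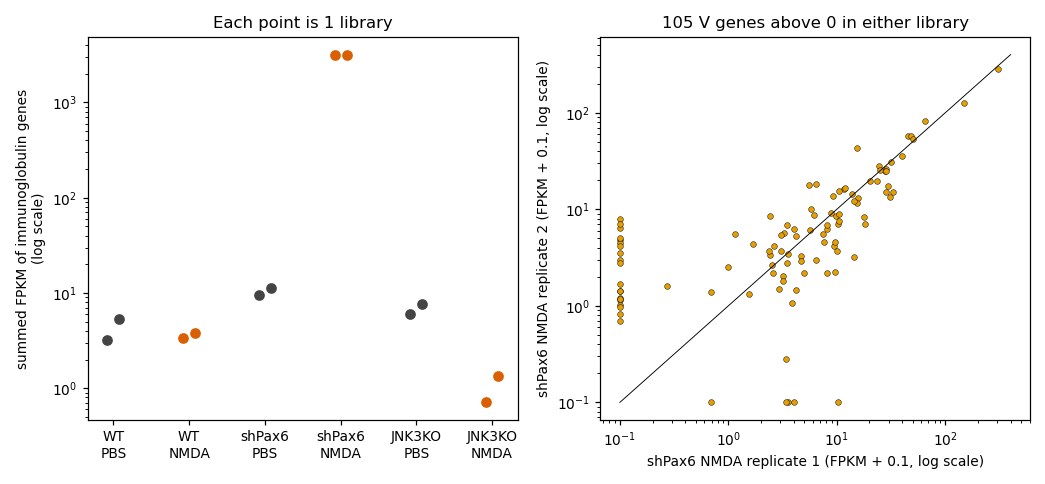
Left, summed FPKM of immunoglobulin genes (log scale) in each of the 12 libraries, each point 1 library of the group named below it: the 2 sh*Pax6* NMDA libraries are at 3178 and 3119, all others below 12. Right, the 105 V genes above 0 in either sh*Pax6* NMDA library, replicate 1 against replicate 2 (FPKM + 0.1, log scales), with the line of equal values; genes with high values lie near the line.

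Of 20 gliosis genes 13 rose and 0 fell, with a median of 1.38 and a summed level of 1775 and 1697 FPKM after PBS and 4916 and 4854 FPKM after NMDA. *Lcn2*, lipocalin of reactive glia, rose from 507 and 500.3 to 2030.5 and 1997 FPKM (2.0 (SE 0.05, adjusted p = 3.87e-08)). *Serpina3n*, a protease inhibitor, rose from 154 and 154 to 316 and 339 FPKM (log2 fold change 1.09, SE 0.05, adjusted p = 9.55e-07). *Vim*, the intermediate filament vimentin, rose from 219.6 and 195 to 533 and 600.0 FPKM (log2 fold change 1.45, SE 0.07, adjusted p = 2.24e-06). *Nes*, nestin, rose from 2.46 and 2.43 to 9.06 and 10.6 FPKM (log2 fold change 1.96). *Gfap*, the filament whose rise marks gliosis, was at 50.4 and 42.9 FPKM after PBS and 103 and 97.8 FPKM after NMDA (log2 fold change 1.11, SE 0.08, adjusted p = 1.17e-05), and its log2 fold change was 0.99 without PBS replicate 2, just below the limit on fold. *Cd44*, a hyaluronan receptor, rose from 9.57 and 7.91 to 46.0 and 43.2 FPKM (log2 fold change 2.34). Of 17 identity genes of Müller glia 2 rose and 1 fell, with a median of 0.08. That median turned to -0.07 under quantile normalization and to -0.07 without NMDA replicate 2. *Sox9*, a transcription factor of these cells, rose from 2.95 and 4.38 to 11.1 and 9.05 FPKM (log2 fold change 1.46, SE 0.20, adjusted p = 0.000781), the lipid carrier *Apoe* from 979.9 and 916 to 1929.8 and 2084 FPKM (log2 fold change 1.08), and the transporter *Abca8a* fell from 41.8 and 43.4 to 20.8 and 19.2 FPKM (log2 fold change -1.09). The rise of *Apoe* was below the limit on fold under quantile normalization (log2 fold change 0.97), as was that of *Serpina3n* (log2 fold change 0.94).

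Of 16 heat shock genes 6 rose (median 0.77). *Hspb1*, a small heat shock protein, rose from 7.44 and 5.25 to 76.9 and 61.1 FPKM (log2 fold change 3.43, SE 0.23, adjusted p = 1.1e-05). *Cryab*, αB-crystallin, rose from 98.3 and 104 to 477 and 479 FPKM (log2 fold change 2.24, SE 0.05, adjusted p = 2.79e-08), and the near-identical *Hspa1a* and *Hspa1b*, the inducible HSP70 pair, by log2 fold changes of 2.20 and 2.36. Of 18 genes of the oxidative response, metallothioneins and iron handling 7 rose (median 0.72). *Mt1*, a metal-binding metallothionein, rose from 387 and 373 to 1075 and 1097 FPKM (log2 fold change 1.51, SE 0.07, adjusted p = 9.55e-07). *Ftl1*, the ferritin light chain, rose from 452 and 436 to 1354 and 1478 FPKM (log2 fold change 1.67, SE 0.06, adjusted p = 2.43e-07). Of 21 matrix and protease genes 11 rose and 0 fell (median 1.17). *Fn1*, fibronectin, rose from 10.4 and 10.2 to 30.9 and 34.0 FPKM (log2 fold change 1.64). Of 17 endothelial and adhesion genes 6 rose (median 0.97). *Adm*, the vessel-acting peptide adrenomedullin, rose from 0.88 and 0.38 to 4.95 and 6.91 FPKM (log2 fold change 3.12). *Pecam1*, the endothelial adhesion molecule CD31, rose from 1.71 and 1.72 to 4.42 and 3.31 FPKM (log2 fold change 1.11, and 0.91 without NMDA replicate 1, below the limit on fold).

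Of 28 genes of the BCL2 family and caspases, which set and execute apoptosis, 5 rose and 0 fell, with a median of 0.52. The BH3-only genes *Bik* and *Bbc3*, which switch on the mitochondrial pathway, rose from 1.98 and 1.96 to 9.04 and 9.23 FPKM and from 3.86 and 2.56 to 9.68 and 7.16 FPKM (log2 fold changes 2.16 and 1.38). *Casp8*, the caspase of death receptors, rose from 1.09 and 1.14 to 4.04 and 4.72 FPKM (log2 fold change 1.88, SE 0.28, adjusted p = 0.000975). *Bax*, a pore-forming BCL2 relative, was at 43.9 and 39.5 FPKM after PBS and 49.0 and 63.7 FPKM after NMDA (log2 fold change 0.42, SE 0.13, adjusted p = 0.0404). *Bad*, a BH3-only gene, was at 22.8 and 20.1 FPKM after PBS and 25.02 and 24.04 FPKM after NMDA (log2 fold change 0.19, SE 0.19, adjusted p = 0.484). Of 22 p53 targets and Gadd45 genes 6 rose and 0 fell (median 0.44). *Gadd45b*, a stress-induced activator of MAP kinase signalling, rose from 35.2 and 34.9 to 138 and 127 FPKM (log2 fold change 1.91, SE 0.06, adjusted p = 2.3e-07). Its relative *Gadd45g* rose from 11.4 and 13.98 to 28.7 and 36.2 FPKM (log2 fold change 1.34). *Gadd45a* was at 29.9 and 30.5 FPKM after PBS and 45.2 and 49.9 FPKM after NMDA (log2 fold change 0.65, SE 0.15, adjusted p = 0.00898). Of other regulators of death and growth, *Ing4* was at 35.4 and 31.0 FPKM after PBS and 42.5 and 39.0 FPKM after NMDA (0.3 (SE 0.08, adjusted p = 0.0258)). *Dedd2* was at 22.7 and 16.3 FPKM after PBS and 22.2 and 22.8 FPKM after NMDA (log2 fold change 0.23, SE 0.17, adjusted p = 0.367) and *Pdcd2* at 15.9 and 16.3 FPKM after PBS and 30.1 and 15.8 FPKM after NMDA (log2 fold change 0.44, SE 0.24, adjusted p = 0.2). The direction of *Dedd2* turned without PBS replicate 2 (log2 fold change -0.01) and that of *Pdcd2* without NMDA replicate 1 (log2 fold change -0.03).

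Genes of RGC identity fell: 12 of 20 were called down and 0 up, with a median of -1.41, and their summed level was 283 and 283 FPKM after PBS and 186 and 169.7 FPKM after NMDA. Beside *Nrn1*, *Sncg* and *Slc17a6*, *Pou4f1*, the RGC transcription factor BRN3A, was at 2.93 and 4.47 FPKM after PBS and 0.86 and 0.08 FPKM after NMDA (log2 fold change -3.16, SE 0.65, adjusted p = 0.00595). *Thy1*, a surface glycoprotein of RGCs, fell from 43.4 and 41.1 to 19.9 and 18.3 FPKM (log2 fold change -1.14, SE 0.09, adjusted p = 3.26e-05). *Rbpms*, an RNA-binding protein used as an RGC marker, was at 3.75 and 4.59 FPKM after PBS and 5.59 and 2.46 FPKM after NMDA (log2 fold change -0.15, SE 0.35, adjusted p = 0.785), its NMDA libraries lying on both sides of the PBS libraries, and at 0.42 without NMDA replicate 2. Markers were already lower in the PBS retinas of this group than in WT PBS retinas, a difference that was not tested: in the WT PBS libraries *Thy1* was at 142 and 145, *Rbpms* at 16.5 and 17.3 and *Pou4f1* at 11.1 and 10.1 FPKM. Of 20 genes of the axonal cytoskeleton 9 fell and 1 rose (median -0.82). *Nefl*, the light neurofilament chain, fell from 40.5 and 35.3 to 7.56 and 7.73 FPKM (log2 fold change -2.29, SE 0.08, adjusted p = 2.43e-07). *Kif5a*, a motor of axonal transport, fell from 28.2 and 27.5 to 10.8 and 10.7 FPKM (log2 fold change -1.36). *Prph*, the filament peripherin of injured and peripheral neurons, rose from 4.18 and 4.43 to 16.6 and 17.97 FPKM (log2 fold change 1.98, SE 0.12, adjusted p = 5.3e-06). Of 15 axon injury genes 8 rose and 1 fell (median 1.13), among them genes that phagocytes also make. *Plin2*, a coat protein of lipid droplets, rose from 6.44 and 5.73 to 42.1 and 47.8 FPKM (log2 fold change 2.86), and *Crh*, corticotropin-releasing hormone, stood at 2.24 and 2.24 FPKM after PBS and was listed at 0 in both NMDA libraries.

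Amacrine genes had the lowest median of the neuron lists. Of 20 tested 14 fell and 0 rose, all 20 had a log2 fold change below 0, the median was -1.84 and the summed level was 572 and 554 FPKM after PBS and 216 and 200.3 FPKM after NMDA. *Gad1*, which makes GABA, fell from 91.4 and 79.3 to 20.1 and 26.3 FPKM (log2 fold change -1.89, SE 0.12, adjusted p = 6.56e-06). *Slc32a1*, which loads GABA and glycine into vesicles, fell from 23.5 and 22.5 to 8.62 and 8.05 FPKM (log2 fold change -1.45, SE 0.08, adjusted p = 3.76e-06). *Chat*, which marks the cholinergic starburst cells, was at 3.24 and 5.84 FPKM after PBS and 0.77 and 1.46 FPKM after NMDA (log2 fold change -1.93), with an adjusted p of 0.0782 without PBS replicate 2 and 0.0898 without NMDA replicate 1. Horizontal cell genes (0 of 7 called, median -0.54) and bipolar cell genes (0 of 19 called, median -0.20) passed no call in either direction, but without NMDA replicate 1 or 2, 2 and 1 horizontal cell genes were called down, and without PBS replicate 1, 1 bipolar gene.

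Of 10 cone genes 6 fell (median -1.27), and beside *Opn1sw*, *Gnat2*, the cone transducin, fell from 162 and 141 to 37.0 and 33.7 FPKM (log2 fold change -2.09, SE 0.08, adjusted p = 4.63e-07) and *Gngt2*, its γ subunit, from 183 and 181 to 76.4 and 85.4 FPKM (log2 fold change -1.17). Of 27 rod genes 2 fell (median -0.61), and 23 had an adjusted p under 0.05 with lower values. *Pde6g*, the inhibitory subunit of rod phosphodiesterase, fell from 2684 and 2488 to 1106 and 1169 FPKM (log2 fold change -1.18, SE 0.05, adjusted p = 1.04e-06). *Guca1b*, a calcium sensor of guanylate cyclase, fell from 852 and 788 to 372 and 401 FPKM (log2 fold change -1.09). The rod list summed to 52603 and 49124 FPKM after PBS and 30830.0 and 31571 FPKM after NMDA.

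Of 29 presynaptic genes 8 fell (median -0.61), and next to *Rims1* the complexin *Cplx2*, a clamp of vesicle fusion, fell from 28.3 and 27.9 to 6.95 and 5.96 FPKM (log2 fold change -2.11, SE 0.09, adjusted p = 8.14e-07), the vesicle protein *Syn2* from 9.71 and 9.83 to 2.87 and 2.21 FPKM (log2 fold change -1.91) and *Cplx1* from 13.3 and 14.3 to 6.21 and 5.60 FPKM (log2 fold change -1.21). Of 22 glutamate receptor genes 8 fell (median -0.97), with subunits of the NMDA receptor itself among them. *Grin2a* fell from 0.89 and 1.19 to 0.07 and 0.06 FPKM (log2 fold change -2.78, SE 0.43, adjusted p = 0.00139). *Grin1*, the obligatory subunit, was at 15.8 and 13.8 FPKM after PBS and 7.91 and 6.38 FPKM after NMDA (log2 fold change -1.04), and its fold was below the limit without PBS replicate 1 (log2 fold change -0.94) and without NMDA replicate 2 (log2 fold change -0.89). *Grin2b* was at 1.14 and 0.94 FPKM after PBS and 0.34 and 0.39 FPKM after NMDA (log2 fold change -1.29), with an adjusted p of 0.0526 without PBS replicate 1. *Grm2*, a presynaptic metabotropic receptor, fell from 4.35 and 3.24 to 0.45 and 0.82 FPKM (log2 fold change -2.44). The AMPA receptor subunit *Gria4* fell from 12.7 and 13.5 to 4.79 and 7.06 FPKM (log2 fold change -1.15, and -0.88 without NMDA replicate 1, below the limit on fold). Of 18 GABA and glycine receptor genes 6 fell (median -0.94), *Gabbr2*, of the metabotropic GABA receptor, from 5.31 and 6.65 to 2.07 and 2.39 FPKM (log2 fold change -1.38) and *Gabrg1* from 1.33 and 1.57 to 0.37 and 0.64 FPKM (log2 fold change -1.39). Of 27 sodium and potassium channel genes 15 fell (median -1.24). *Kcnc1*, a fast voltage-gated potassium channel, fell from 17.4 and 15.4 to 4.95 and 5.24 FPKM (log2 fold change -1.66, SE 0.11, adjusted p = 7.98e-06), *Kcnip4*, a channel partner, from 10.7 and 10.5 to 2.05 and 2.72 FPKM (log2 fold change -2.12). *Scn3b*, a sodium channel subunit, fell from 3.55 and 4.61 to 0.66 and 0.62 FPKM (log2 fold change -2.49).

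Of 9 RPE genes 6 fell and 1 rose (median -2.26). *Rgr*, an opsin of the RPE and Müller glia, fell from 12.9 and 15.0 to 0.87 and 0.98 FPKM (log2 fold change -3.78, SE 0.23, adjusted p = 6.5e-06). *Rpe65*, the isomerase of the visual cycle, fell from 3.11 and 3.19 to 0.11 and 0.35 FPKM (log2 fold change -3.40, SE 0.38, adjusted p = 0.000197). The summed level of the RPE list, its risen member included, was 96.2 and 85.0 FPKM after PBS and 109 and 105 FPKM after NMDA. Of 16 lens genes 3 rose and 1 fell (median 0.19, which turned to -0.02 without NMDA replicate 2). The crystallin *Cryaa*, also made in retina, was at 30.3 and 26.2 FPKM after PBS and 61.3 and 57.1 FPKM after NMDA (log2 fold change 1.07, and 0.96 without PBS replicate 2), *Crygs* at 6.39 and 4.35 FPKM after PBS and 13.3 and 10.5 FPKM after NMDA (log2 fold change 1.15, and 0.88 without PBS replicate 2) and *Crybb3* at 8.28 and 3.88 FPKM after PBS and 13.5 and 11.2 FPKM after NMDA (log2 fold change 1.11, and 0.57 without PBS replicate 2). All 3 crystallin calls were thus lost without that library, and *Bfsp1*, at 1.09 and 0.77 FPKM after PBS and 0 and 0.34 FPKM after NMDA, lost its call without PBS replicate 1, PBS replicate 2 or NMDA replicate 1. Only 1 cornea gene was tested, *Aldh3a1*, at 0.36 and 0 FPKM after PBS and 2.7 and 0.57 FPKM after NMDA, and it was called up without PBS replicate 1 or NMDA replicate 2. The part of these tissues in the other results was not tested.

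Of 77 cytosolic ribosomal genes 1 rose, all had a log2 fold change above 0 on the deposited scale and the median was 0.48. The gene that rose, *Rps27l*, a p53-induced relative of a ribosomal protein, went from 42.9 and 34.2 to 87.2 and 90.4 FPKM (log2 fold change 1.21, SE 0.12, adjusted p = 0.000114). Without PBS replicate 1 or NMDA replicate 2, 3 ribosomal genes were called. Of 91 respiratory chain genes 2 rose and 0 fell (median 0.09, and -0.04 under quantile normalization). *Ndufa4l2*, a hypoxia-induced relative of a complex subunit, rose from 0.1 and 1.35 to 12.4 and 9.35 FPKM (log2 fold change 4.33), and *Cox7a1* was at 1.32 and 8.15 FPKM after PBS and 23.8 and 19.3 FPKM after NMDA (log2 fold change 2.65), with an adjusted p of 0.0824 and 0.0515 without NMDA replicates 1 and 2. Of 22 cell cycle genes 4 rose (median 0.49). *Ccnd1*, cyclin D1 of the G1 phase, rose from 17.9 and 11.1 to 46.4 and 40.4 FPKM (log2 fold change 1.61), *Top2a*, a topoisomerase of dividing cells, from 0.28 and 0.63 to 3.93 and 2.11 FPKM (2.5), and *Aurkb*, a mitotic kinase, was listed at 0 after PBS and at 1.44 and 0.78 FPKM after NMDA. Of 20 cholesterol synthesis genes 2 fell (median -0.26). *Hsd17b7*, an enzyme of the pathway, fell from 5.58 and 3.95 to 1.76 and 2.51 FPKM (log2 fold change -1.12). The call of *Hsd17b7* was lost without PBS replicate 1 (log2 fold change -0.88) and without NMDA replicate 1 (log2 fold change -0.88).

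Of 48136 autosomal transcripts tested, 1553 rose (3.23%) and 1293 fell (2.69%). These counts moved with single libraries, to 5963 in all without NMDA replicate 2 and 4549 without PBS replicate 2, and to 0 with only the 4 sh*Pax6* libraries behind the spread. Of the called transcripts 1346 (47.3%) belonged to a gene called in the same direction, 11 to a gene called in the other, and 1489 to a gene not called. A transcript called up and another called down were found in 81 genes, but in only 1, *Orc3*, were both protein-coding with means above 1 FPKM in both groups. *Orc3* encodes a subunit of the origin recognition complex. Its transcript Orc3-201 rose from 6.82 and 7.13 FPKM after PBS to 16.3 and 17.3 FPKM after NMDA, a log2 fold change of 1.26 (SE 0.19, adjusted p = 0.00683 in limma). Transcript Orc3-202 fell from 11.0 and 9.58 FPKM after PBS to 3.21 and 4.95 FPKM after NMDA, a log2 fold change of -1.34 (SE 0.31, adjusted p = 0.0361). The gene as a whole was at 27.6 and 25.1 FPKM after PBS and 27.8 and 31.3 FPKM after NMDA (log2 fold change 0.17). Estimates for transcripts of 1 gene share its reads.

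Among protein-coding genes with a mean above 10 FPKM, 6 had the largest differences between the 2 NMDA libraries. *Gm11007* and *Gm2007*, whose values were identical in every library, were at 29.2 and 0 FPKM in NMDA replicates 1 and 2 and at 16.5 and 1.52 FPKM after PBS. *Zc3h11a* was at 0 and 23.9 and *AL731706.2* at 0 and 13.6 FPKM after NMDA, against 13.8 and 15.8 and 4.64 and 24.2 FPKM after PBS. *Fgf12*, an intracellular relative of growth factors that binds sodium channels, was at 17.4 and 18.7 FPKM after PBS and 22.7 and 3.49 FPKM after NMDA, and *Zfp950*, a zinc-finger gene, at 14.1 and 18.2 FPKM after PBS and 103 and 18.6 FPKM after NMDA. None of the 6 was called, and the direction of all but *Zfp950* turned when 1 library was left out.

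Whether the response of sh*Pax6* retinas differed from that of the other genotypes was tested as a contrast between the 2 responses. The genes that rose or fell were chosen by the sh*Pax6* response, which is also a term of each contrast. Their splits lean toward larger sh*Pax6* responses by that choice and are a description only. Those that rose include 85 immunoglobulin genes, most of which passed the filter only through the sh*Pax6* NMDA group. Against WT, 734 of the 1380 genes that rose (53.2%) had a response more than 1 log2 unit higher in sh*Pax6* retinas at an adjusted p under 0.05, 12 one lower, and 634 neither. Among all tested genes the response was higher for 3387 (21.3%) and lower for 1657 (10.4%). That split depends on how the WT NMDA libraries are scaled: it was 5664 and 655 in TPM, 2064 and 1745 under quantile normalization and 1811 and 1669 with a correction for length (89.6%, 54.2% and 52.0% higher, against 67.1%). Against JNK3 KO, 827 of the genes that rose (59.9%) had a higher response, and 1057 (6.65%) and 331 (2.08%) of all genes were higher and lower. Here 75th-percentile scaling gave 910 and 470 and quantile normalization 817 and 615 (65.9% and 57.1% higher, against 76.2%). Of the 769 genes that fell, 215 (28.0%) fell further than in WT and 45 less far, and 233 (30.3%) fell further than in JNK3 KO.

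By list, the response of monocyte and macrophage genes was higher than in WT for 16 of 23 and than in JNK3 KO for 19, with medians of 2.49 in sh*Pax6*, 0.36 in WT and -0.72 in JNK3 KO retinas. Their summed level in sh*Pax6* retinas was 129 and 127 FPKM after PBS and 788 and 815 FPKM after NMDA. In WT retinas it was 326 and 362 FPKM after PBS and 722 and 677 FPKM after NMDA, so the summed levels differed more after PBS than after NMDA. *Cd68* reached 68.9 and 73.2 FPKM from 4.44 and 5.99 in sh*Pax6* retinas, while it went from 7.25 and 8.17 to 33.6 and 35.4 FPKM in WT retinas, a difference of 1.61 (SE 0.20, adjusted p = 0.000174) between the log2 fold changes. *Gpx3* was at 5.77 and 6.80 and 4.79 and 7.13 FPKM in WT retinas after PBS and NMDA, and *Ccl8* at 0.12 and 0.11 and 0 and 0.23 FPKM, with differences of 4.99 (SE 0.30, adjusted p = 4.21e-06) and 5.45 (SE 1.07, adjusted p = 0.00264). For *Ccl2*, which rose in WT retinas too (4.61 and 4.39 to 138 and 126 FPKM), the difference was -0.34 (SE 0.44, adjusted p = 0.541) and was not called. Gliosis genes had a higher response than in WT for 12 of 20 and than in JNK3 KO for 15 (medians 1.38 in sh*Pax6*, 0.62 in WT and -0.20 in JNK3 KO retinas). The difference of *Gfap* was 1.63 (SE 0.11, adjusted p = 6.46e-06) against WT, where it stood at 78.0 and 81.6 FPKM after PBS and 55.7 and 55.3 FPKM after NMDA. Of interferon-stimulated genes 15 of 35 had a higher response than in WT, and 0 a lower one. Neutrophil genes had a higher response than in WT for 4 of 15 and a lower one for 2. Their summed level was higher in WT retinas, at 247 and 274 FPKM after PBS and 2017 and 2058 FPKM after NMDA. In sh*Pax6* retinas it was 12.8 and 8.86 FPKM after PBS and 78.7 and 90.8 FPKM after NMDA.

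RGC genes had close medians in the 3 responses (-1.41 in sh*Pax6*, -1.55 in WT and -1.40 in JNK3 KO retinas), with 3 of 20 higher and 3 lower than in WT. Amacrine genes had a lower response than in WT for 7 of 20 and than in JNK3 KO for 8, and a higher one for 0 (medians -1.84 in sh*Pax6*, -0.96 in WT and -0.46 in JNK3 KO retinas). *Calb2*, which went from 265 and 285 to 130.1 and 132 FPKM in WT retinas, had a difference of -2.62 (SE 0.10, adjusted p = 8.21e-07) against WT. Cone genes had a lower response than in WT for 5 of 10 (medians -1.27 in sh*Pax6*, -0.13 in WT and -0.48 in JNK3 KO retinas), *Opn1sw* with a difference of -2.51 (SE 0.17, adjusted p = 6.37e-06). In WT retinas it was at 111 and 117 FPKM after PBS and 61.8 and 52.4 FPKM after NMDA. RPE genes had a lower response than in WT for 5 of 9, *Ttr* with a difference of -4.09 (SE 0.31, adjusted p = 1.38e-05). Sodium and potassium channel genes had a higher response than in WT for 10 of 27 (medians -1.24 in sh*Pax6*, -1.73 in WT and -0.48 in JNK3 KO retinas). Ribosomal and respiratory chain genes had a lower response than in WT for 73 of 77 and 67 of 91, where the medians were 2.11 and 1.51 in WT retinas, and against JNK3 KO 0 genes of either list were lower. The WT NMDA libraries behind these values are those with the high FPKM sums. The WT response also went with spliced length, with a median of 0.85 for genes of 1 to 2 kb and -0.59 for those over 4 kb. In sh*Pax6* retinas the same medians were 0.21 and 0.05. The list differences from WT were not recomputed with the length correction, and the part of length in them was not tested.

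For genes of cell death and stress, *Jun* had a higher response than in WT, with a difference of 1.33 (SE 0.12, adjusted p = 3.56e-05), and *Bax* and *Pdcd2* a lower one, with differences of -1.20 (SE 0.19, adjusted p = 0.000788) and -1.39 (SE 0.33, adjusted p = 0.00762). In WT retinas *Bax* went from 34.0 and 41.1 to 118 and 113 FPKM and *Pdcd2* from 14.1 and 14.4 to 49.4 and 52.0 FPKM. The difference of *Bax* was -0.63 with the correction for length and -0.67 in TPM, both below the limit on fold, and that of *Pdcd2* -0.87 in TPM and -0.93 without NMDA replicate 2. The difference of *Pax6* itself, 1.11 (SE 0.10, adjusted p = 2.83e-05), was 0.06 with the correction for length.

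**Figure D5:**
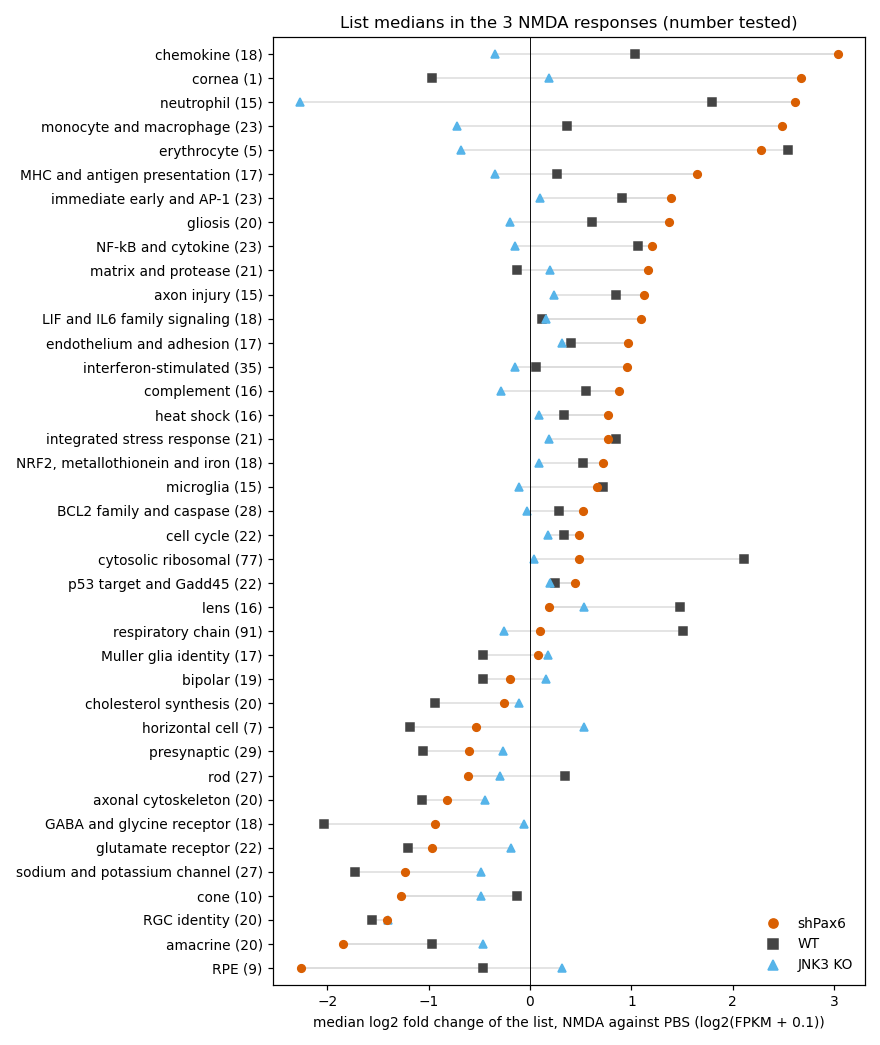
Median log2 fold change after NMDA of each gene list (number of genes tested) in sh*Pax6* (circles), WT (squares) and JNK3 KO retinas (triangles), in the order of the sh*Pax6* medians. The monocyte and macrophage list is at 2.49 in sh*Pax6* and 0.36 in WT retinas, the RGC list near -1.4 to -1.6 in all 3, and the cytosolic ribosomal list at 0.48 in sh*Pax6* and 2.11 in WT retinas.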

How the data were processed

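Libraries were sequenced from poly(A) RNA of whole retinas, 12 in 6 groups of 2, of which the 4 sh*Pax6* libraries were compared here. The authors deposited FPKM per gene and per transcript, which per the submitters' processing notes came from STAR 2.7.1a and RSEM 1.3.3 on GRCm38.p6, with edgeR 3.36.0 and R 4.1.0 also named there. No counts were used, so depth is unknown and no counting interval is given. IDs were named from an annotation of the same build (GENCODE M21), which held 55227 gene IDs (99.5%) and 141469 transcript IDs (99.1%). Columns of no sample numbered 0.

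Genes and transcripts with a group mean above 1 FPKM were fitted as log2(FPKM + 0.1) in limma 3.58.1 (R 4.3.3, data.table, version 1.17.8) over all 12 libraries and 6 groups, with an intensity trend and 6 residual degrees of freedom. P-values were two-sided and Benjamini-Hochberg adjusted, and a call needed an adjusted p under 0.05 and an absolute log2 fold change above 1. An exact permutation test of 2 against 2 libraries cannot reach the threshold, so none was run. The fit was run on simulated data in which each gene had the same spread in all 6 groups. That run cannot check the effect of the wider gaps between sh*Pax6* replicates. Python 3.11.15, pandas 2.3.3 and matplotlib 3.10.9 did the rest. Promoter windows came from RefSeq.

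Named genes were the 12 largest rises and falls described above, up to 3 called genes in each direction and list by lowest adjusted p, 16 genes of the study's interest, the 6 genes with the largest gap between NMDA libraries, and genes with opposed transcripts, some of which are not reported here. The members and lists were chosen with earlier results of these data known. The B and plasma cell, T and NK cell, fibroblast and smooth muscle lists were chosen after values were seen, as were the names of *Lif*, *Fosl1*, *Vim*, *Nes*, *Cd44*, *Hspb1*, *Grin1*, *Grin2b*, *Chat*, *Tmem119*, *Chil3*, *Ly6g*, *Ngp*, *Aldh3a1*, *Cxcl1*, *Cxcl2*, *Cxcl10*, *Nfkbia*, *Rsad2* and the immunoglobulin, collagen, smooth muscle and lymphocyte genes. Alternatives were other scalings, pseudocounts, filters, a length correction, another source of spread, a replicate term, unadjusted p-values and each sh*Pax6* library left out.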

Additional observations from a re-analysis of the deposited data

Results flagged for a closer look

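The contrast between the response of sh*Pax6* retinas and that of each other genotype passed its test for 5044 genes against WT and 1388 against JNK3 KO retinas. These differences are given below only for genes named for the largest rises and falls and for reported genes of the study's interest. Each is the log2 fold change in sh*Pax6* retinas minus that in the other genotype. Genes named by other rules are not listed here, whether or not their responses differed. Genes named for the largest rises and falls were chosen by the sh*Pax6* response, so their differences lean in the same direction by that choice.

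Against WT retinas the response of 14 genes was higher and that of 11 lower, each by more than 1 on the log2 scale at an adjusted p under 0.05 (limma, Benjamini-Hochberg). The response was higher for *Ccl8* (5.45), *Gpx3* (4.99), *Lst1* (3.19), *Ccl6* (3.08), *Srgn* (2.61) and *Spp1* (2.49). It was also higher for *Hmox1* (2.05), *Mapk10* (1.84), *Gfap* (1.63), *Cd68* (1.61), *S100a8* (1.52) and *Lgals3* (1.49). It was also higher for *Jun* (1.33) and *Pax6* (1.11). A higher response is not a higher level: the neutrophil list, which holds *S100a8*, summed to 2017 and 2058 FPKM in the WT NMDA libraries. In the sh*Pax6* NMDA libraries it summed to 78.7 and 90.8 FPKM. The response was lower for *Ttr* (-4.09), *Syt5* (-2.69), *Calb2* (-2.62), *Clec2l* (-2.57), *Opn1sw* (-2.51) and *Sncg* (-2.40). It was also lower for *Nrn1* (-1.67), *Tac2* (-1.52), *Pdcd2* (-1.39), *Bax* (-1.20) and *Thy1* (-1.16). The differences of *Lst1*, *Mapk10*, *Tac2*, *Clec2l* and *Pdcd2* from WT lost their call when 1 sh*Pax6* library was left out, and those of *Bax*, *Thy1*, *Pax6*, *Mapk10*, *Tac2*, *Clec2l* and *Pdcd2* under another scaling or the length correction. With pseudocount 1 those of *S100a8* (0.85) and *Nrn1* (-0.99) lost it too.

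Against JNK3 KO retinas the response of 16 genes was higher and that of 7 lower, each by more than 1 on the log2 scale at an adjusted p under 0.05 (limma, Benjamini-Hochberg). The response was higher for *S100a8* (7.66), *S100a9* (7.65), *Srgn* (5.71), *Lst1* (5.28), *Gpx3* (4.82) and *Ccl6* (4.07). It was also higher for *Ccl2* (3.97), *Lgals3* (3.07), *Hmox1* (2.88), *Cd68* (2.85), *Spp1* (2.52) and *Gadd45b* (1.68). It was also higher for *Gfap* (1.36), *Jun* (1.23), *Atf3* (1.13) and *Gadd45a* (1.01). The response was lower for *Ttr* (-3.64), *Cacnb4* (-3.48), *Opn1sw* (-2.85), *Rims1* (-2.71), *Syt5* (-1.70) and *Nrn1* (-1.35). It was also lower for *Calb2* (-1.32). The differences of *Rims1*, *Nrn1* and *Gadd45a* from JNK3 KO lost their call when 1 sh*Pax6* library was left out, as did that of *Atf3* without PBS replicate 2. With pseudocount 1 those of *Nrn1* (-0.72) and *Gadd45a* lost it, the latter also under every other scaling and the length correction. With that correction *Atf3* lost it as well and *Jun* fell to just under the limit on fold. The WT and JNK3 KO retinas did not receive the vector, so genotype and infection cannot be told apart in these contrasts.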

How the results depend on the processing

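Total counts of called genes stayed within 1.5 times of the value reported under every scaling, pseudocount, filter and library left out that was run, and 0 genes were called in the opposite direction. Counts in 1 direction moved further: 482 genes in place of 769 fell with pseudocount 1. Of the differences from WT, 3387 higher and 1657 lower became 5664 and 655 in TPM, 2064 and 1745 under quantile normalization and 1811 and 1669 with the length correction. Of those from JNK3 KO, the 331 lower became 615 under quantile normalization and 597 without NMDA replicate 2, and 542 at an unadjusted p. The totals moved beyond that limit with the source of spread and in transcripts. With only the 4 sh*Pax6* libraries behind the spread, 630 genes in place of 2149 were called, 623 of them shared, 0 transcripts and 146 list genes in place of 288. In transcripts, an unadjusted p gave 7083 calls in place of 2846. Leaving out 1 library gave 1907 to 2503 genes, 2218 to 5963 transcripts (41.6% of these up without NMDA replicate 2, against 54.6%), 4818 to 5415 and 1345 to 1798 differences from WT and JNK3 KO, 270 to 288 list genes and 112 to 122 named genes. Without immunoglobulin genes, a choice made after seeing the data, 2064 genes were called. With the replicate number as a block, 2109 genes and 2394 transcripts were called. Deviations of same-numbered libraries correlated at r = 0.016 across genes in 2 pairs. So few pairs cannot show whether same-numbered libraries share animals or processing, and the labels do not say.

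The median of all genes (0.10) was -0.0049 under 75th-percentile scaling, -0.043 under quantile normalization and -0.016 with the length correction. In the same order the Müller glia median was -0.041, -0.073 and -0.12 and the respiratory chain median -0.025, -0.045 and -0.11, and the lens median was -0.038 with the length correction. With 1 library left out, values ran from -0.066 to 0.24 for the Müller glia list, -0.016 to 0.28 for the lens list, -0.013 to 0.46 for *Dedd2*, -0.0255 to 0.90 for *Pdcd2*, -0.73 to 0.42 for *Rbpms*, -5.70 to 2.5 for *Gm11007* and *Gm2007*, -7.21 to 0.69 for *Zc3h11a*, -6.75 to 0.35 for *AL731706.2* and -2.33 to 0.33 for *Fgf12*. Of all other values of named genes, 121 lost and 6 gained a call, and the cause was not tested. With only the 4 sh*Pax6* libraries behind the spread, 46 lost it, among them *Lst1*, *Rims1*, *Clec2l*, *Tac2*, *Slc17a6*, *Cx3cl1*, *Cxcl13*, *Pim1*, *Sox9*, *Casp8*, *Birc3*, *Gadd45g*, *Bbc3*, *Asns*, *Grm2*, *Gria4*, *Gabbr2*, *Gabrg1*, *Icam1*, *Pecam1*, *Adm*, *Ccnd1*, *Top2a*, *Hsd17b7*, *Rpe65*, *Crygs*, *Crybb3*, *Bfsp1*, *Hba-a1*, *Hbb-bs*, *Hba-a2*, *Ndufa4l2*, *Cox7a1*, *Pou4f1*, *Mzb1*, *Trbc2*, *Col1a1*, *Col3a1*, *Acta2*, *Nfkbia*, *Lif*, *Fosl1*, *Grin1*, *Grin2b* and *Chat*. FPKM without counts leaves the precision of low values unknown.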
